A study of Homo sapiens with 43 samples.

Results

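The MYC, MAX and MXD network was followed as 10 listed genes in the RNA-seq count table, out of 58347 gene entries. The 10 were MYC, MAX, MXD1, MXI1, MXD3, MXD4, MNT, MGA, MLX and MLXIP, named as members of the family with earlier results of these data known. All 10 passed the filter on low counts and stood among the 21300 genes tested. A gene is said to be called where its adjusted p was under 0.05. They were measured in HEL cells (a line grown from a human erythroleukemia) that stably carry U2AF1, the smaller subunit of the U2AF heterodimer at the 3′ splice site, in its wild-type form (WT) or with the substitution S34F or Q157R. Of the 6 RNA-seq groups, 3 were uninduced lines: WT (n = 2), S34F (n = 1) and Q157R (n = 1). The other groups were the same lines after 48 hours of doxycycline at 1 µg/ml: WT, S34F and Q157R (n = 2 each). Doxycycline went with induction in every line, so the drug and the transgene cannot be told apart within a line, and induced WT cells were the control that received the same drug. Whether a line was 1 clone or a pool, and whether the biological replicates were separate cultures, is not given in the sources used here, so the p-values rest on a variation between libraries that can be partly technical.

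MYC is a basic helix-loop-helix leucine zipper transcription factor that binds the E-box CACGTG as a dimer with MAX and recruits histone acetyltransferase complexes. The MXD proteins and MNT compete for MAX and bring SIN3 and histone deacetylases to the same sites, and in blood cells the balance usually shifts from MYC to MXD as cells stop dividing and mature. MGA joins MAX in a Polycomb repressive complex, while MLX is a MAX-like partner of MLXIP (MondoA), which responds to glucose, and also of MNT, MXD1 and MXD4.

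RefSeq promoter windows of 300 bases (250 before a transcript's start and 50 after it, GRCh38.p14) were found for 9 of the 10 genes, 14 windows in all. No window was found for MYC, so its promoter was not searched. The E-box was searched as CACGTG, which reads the same on both strands. It occurred in the windows of MXD4, MNT and MLX, 3 of 9 genes, and in 8.77% of the 27305 genes with a window. The matches are printed to show the letters that MAX dimers recognise beside the start of MXD4, the gene that changed most, and of both other genes with a match. Each line is 30 bases on the gene's strand, with the E-box in capitals, taken at chr4:2262330-2262359 (minus strand) for MXD4, chr17:2401236-2401265 (minus strand) for MNT and chr17:42567038-42567067 (plus strand) for MLX.
MXD4: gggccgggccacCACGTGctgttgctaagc
MNT: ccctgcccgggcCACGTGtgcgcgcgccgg
MLX: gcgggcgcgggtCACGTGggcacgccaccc
The E-box begins 238 bases before the RefSeq transcript start in MXD4 (position 2262109), 193 in MNT (2401060) and 50 in MLX (42567100). GENCODE 29 places these starts further out, and from its gene starts the distances are 53, 135 and 18 bases. A match describes these letters only, and no binding of a factor was measured.

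The RNA-seq libraries held 22392303 to 40370092 counts that named a gene. U2AF1 itself, the transgene's gene, stood in the WT line at CPM values (counts scaled to a common library size with the TMM method) of 13.4 and 12.6 before induction and 19.1 and 11.01 after it. The S34F line had 21.2 CPM before and 18.0 and 19.4 after, and the Q157R line 22.1 before and 21.5 and 15.2 after. Its counts therefore did not separate induced from uninduced libraries and do not check the labels, and U2AF1 has a near-identical copy in the GRCh38 assembly that can take its reads. Reads assigned to no counted feature made up 33.6% ± 0.141 (SD, n = 2) of induced S34F libraries and 22.7% ± 0.0283 of induced WT. They made up 25.1% ± 2.65 of induced Q157R and 18.97% to 20.6% of the 4 uninduced libraries. Whether these reads lay outside genes or within them was not tested. Their share was highest in the induced S34F libraries, which every RNA-seq call for S34F given here includes. Its part in the comparisons with these libraries was not tested. At the median library 11 of 12 erythroid markers and 0 of 6 lymphoid markers stood above 1 CPM. So did 4 of 6 megakaryocyte, 3 of 6 monocyte and granulocyte and 2 of 6 stromal and epithelial markers. The markers thus do not single out an erythroid identity. The summed level of 6 monocyte and granulocyte markers was 81.1 to 94.6 CPM in induced S34F and 46.5 to 61.5 in induced WT, that of 12 erythroid markers 1203 to 1479 against 1568 to 1836, and that of 6 megakaryocyte markers 920 to 1338 against 1531 to 2462. Few genes make up most of each sum. Median levels were 612 CPM for TFRC and 390 for HBG2 (erythroid), 1149 for ITGA2B (megakaryocyte) and 33.8 for LYZ (monocyte and granulocyte). TFRC is also on the list of MYC-activated targets used below. The part of these marker levels in the results was not tested, and in bulk RNA fewer cells of a kind and less RNA per cell cannot be told apart.

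Compared between genes per kilobase of exon, MYC was by far the most abundant transcript of the network, at a median of 142 CPM per kb over the 10 libraries (54.0 to 224). MAX followed at 33.4 (28.2 to 38.1), below every MYC value. MGA at 19.9, MLX at 18.0 and MLXIP at 16.8 CPM per kb had overlapping ranges, from 14.3 to 22.2. The dedicated antagonists were the scarcest: MNT was at a median of 5.31, MXD1 at 3.59, MXD3 at 2.72, MXI1 at 2.51 and MXD4 at 1.59 CPM per kb, and the ranges of MXD1, MXD3, MXI1 and MXD4 overlapped. MXD4 nevertheless had the widest span, with its highest library 6.85 times its lowest, followed by MYC at 4.15 times, whereas MAX, MNT, MGA, MLX and MLXIP each stayed within 1.42 times.

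**Figure D1:**
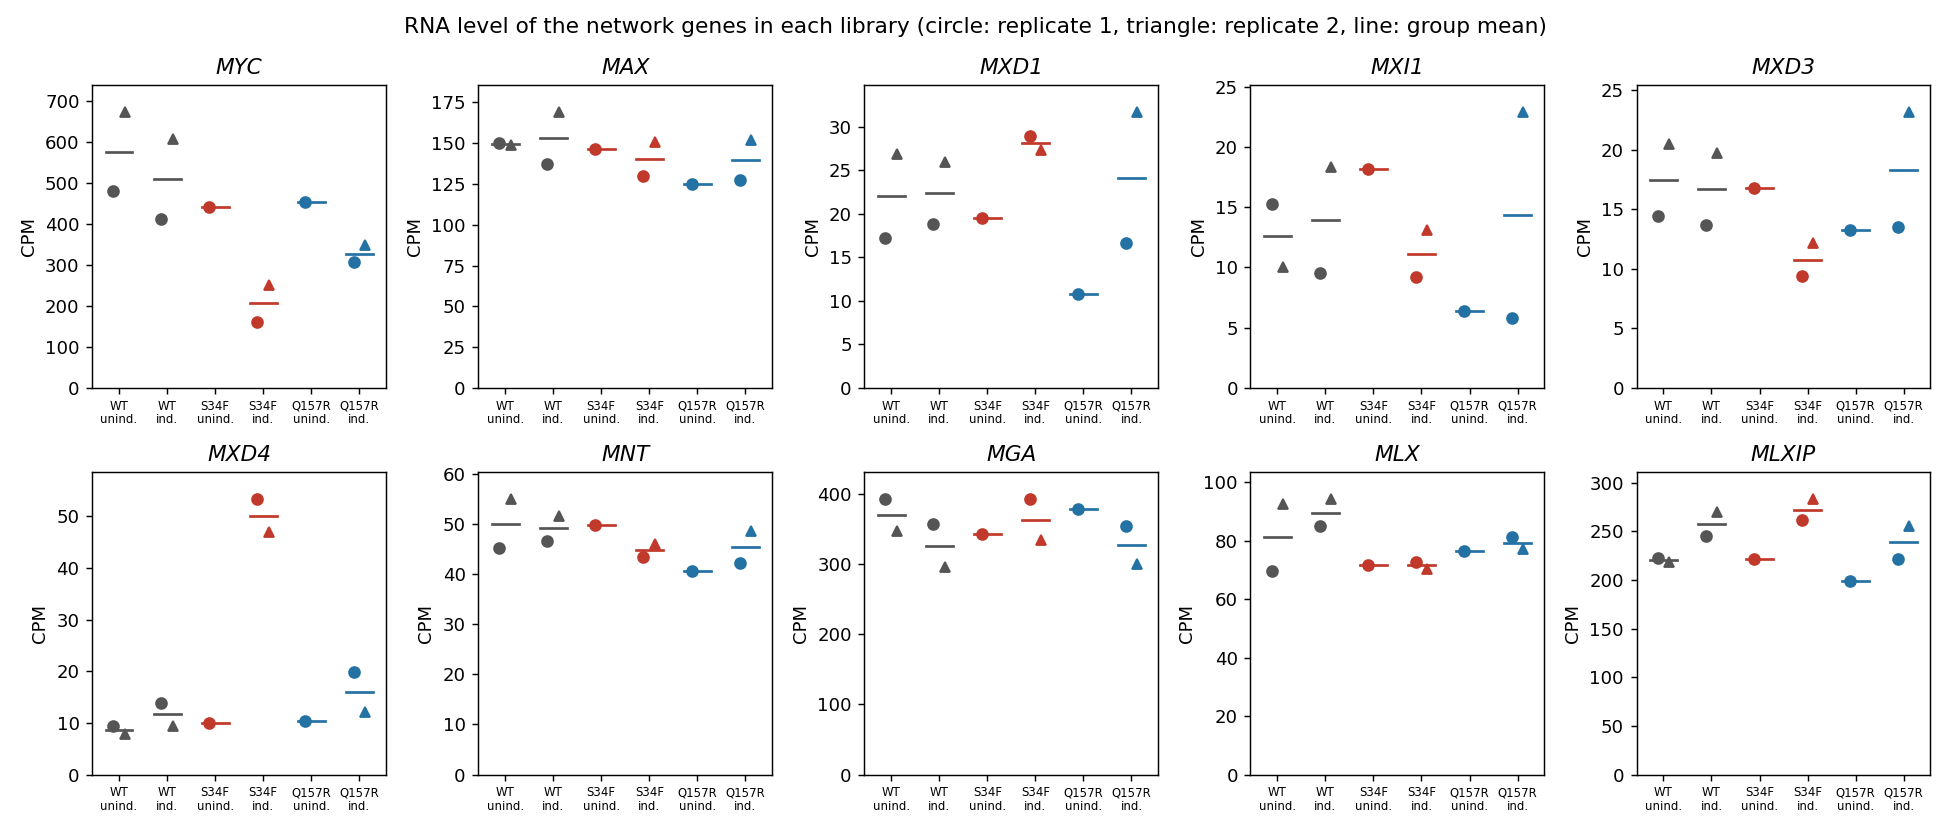
RNA level of each network gene (y axis, CPM from 0) in the 10 RNA-seq libraries, grouped along the x axis by line and induction (unind., uninduced; ind., induced). Circles are replicate 1, triangles replicate 2 and lines the group mean; both induced S34F libraries stand lowest for MYC (162 and 250 CPM) and highest for MXD4 (53.3 and 46.9 CPM).

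In induced cells the S34F line was compared with the WT line, so the mutation and other differences between these lines cannot be told apart. MXD4, a MAX partner that represses E-box genes, was higher in S34F, and MYC stood lower without passing the threshold in the fit without pairing. MXD4 was at 53.3 and 46.9 CPM in induced S34F against 13.9 and 9.43 in induced WT. It lies on chromosome 4 at positions 2247432 to 2262294 (GRCh38, GENCODE 29, minus strand). Both S34F libraries were above every other RNA-seq library, the next highest being 20.0 CPM in induced Q157R replicate 1. MXD4 rose 4.29-fold (log2 fold change 2.10 ± 0.30 SE, adjusted p = 0.0443, edgeR quasi-likelihood test), and 0.681% of all genes tested were called higher. With the replicate number as a block, which the pairing of the libraries allows, the value was 2.13 ± 0.19 (adjusted p = 0.000206). The call was lost, at unchanged direction, when induced S34F replicate 1 (2.01, adjusted p = 0.359), S34F replicate 2 (2.20, 0.21), WT replicate 1 (2.41, 0.12) or WT replicate 2 (1.83, 0.124) was left out, and its adjusted p ranged from 2.85e-09 to 0.359 over 10 alternatives.

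MYC was at 162 and 250 CPM in induced S34F against 413 and 607 in induced WT. The groups did not overlap, and the difference was similar in the pair of replicates 1 (log2 ratio -1.35) and in that of replicates 2 (-1.28). With 2 libraries each, groups can stand apart without a real difference, for MYC and for the members below. The share of all genes that stood apart was not counted. The log2 fold change was -1.31 ± 0.29, with an adjusted p of 0.061 in the edgeR fit without pairing and of 0.000435 with the replicate block (-1.31 ± 0.14), where 12.9% of all genes were called lower. DESeq2 gave an adjusted p of 0.00157. Without induced S34F replicate 1 the value was -1.02 (adjusted p = 0.377).

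The 3 other MXD genes did not follow MXD4. MXD3, whose product is the MXD protein most linked to dividing cells, was at 9.42 and 12.1 CPM in induced S34F and 13.7 and 19.7 in induced WT. The libraries did not overlap, and the difference was -0.63 ± 0.33 (adjusted p = 0.291, edgeR), or -0.62 ± 0.18 with the replicate block (adjusted p = 0.0272). MXD1, the archetype of the family and a gene raised in maturing myeloid cells, was at 29.01 and 27.3 CPM against 18.8 and 25.99. The groups sat side by side without overlap, and the difference of 0.33 ± 0.34 was smaller than its error (adjusted p = 0.587). MXI1 was at 9.18 and 13.1 CPM against 9.57 and 18.3, overlapping libraries with a difference of -0.32 ± 0.59 (adjusted p = 0.775). MXD3 shares 926 exonic bases with RAB24 on its own strand and MXD1 shares 237 with SNRNP27, so reads from the shared stretches cannot be assigned to 1 of them.

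The common partner and the remaining members did not pass the threshold. MAX was at 130 and 151 CPM in induced S34F against 137 and 169 in induced WT (-0.13 ± 0.18, adjusted p = 0.694). MNT was at 43.4 and 46.1 against 46.6 and 51.6 CPM (-0.13 ± 0.18, adjusted p = 0.676). MGA was at 392.1 and 335 against 357 and 296 CPM (0.15 ± 0.18, adjusted p = 0.628). These libraries overlapped for MAX and MGA and stood just apart for MNT. MLX was at 72.6 and 70.4 against 84.9 and 94.1 CPM, with no overlap and a difference of -0.32 ± 0.18 (adjusted p = 0.316). MLXIP was at 261 and 283 against 245 and 270 CPM, overlapping (0.08 ± 0.15, adjusted p = 0.785). In all, 1 of 10 members was called, against 1.67% of all genes tested, and 3 of 10 with the replicate block (1 higher and 2 lower), against 22.4%. Without the block, 2 members and 4973 of the 21300 genes had an unadjusted p under 0.05. The members' median log2 fold change was -0.13, that of all genes 0 and that of protein-coding genes -0.16.

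**Figure D2:**
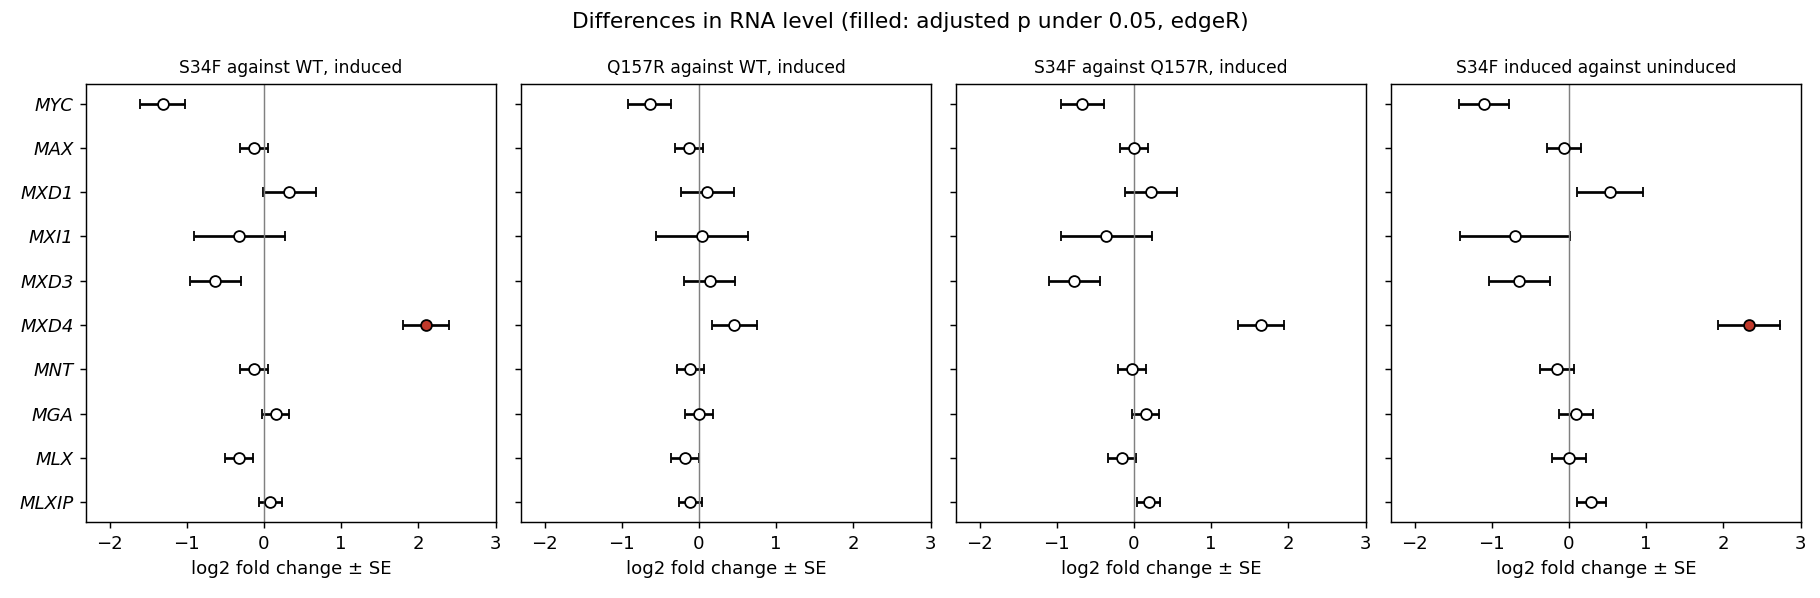
Log2 fold change with its standard error (x axis) for the 10 network genes (y axis) in 4 comparisons, from the edgeR fit without the replicate block; filled points passed an adjusted p of 0.05. MXD4 is filled in S34F against WT (2.10) and in S34F induced against uninduced (2.33), and no point is filled in the panels with Q157R.

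The balance between the activator and its antagonists was described as the level of MYC over the summed level of MXD1, MXI1, MXD3 and MXD4, all per kb of exon. The WT line gave 15.8 and 19.5 before induction and 14.3 and 15.3 after it. The S34F line gave 12.6 before and 3.39 and 5.16 after, and the Q157R line 21.2 before and 10.95 and 7.19 after. Induced S34F libraries held the lowest ratios of the series and induced Q157R libraries the next lowest. MXD4 made up 47.4% and 41.2% of the summed MXD level in induced S34F, against 9.61% to 30.3% in the other 8 libraries. The sum itself did not set induced S34F apart: it was 15.9 and 16.2 CPM per kb there and 16.1 in induced Q157R replicate 2, where MXD1, MXI1 and MXD3 made up most of it. Measured against MAX, MYC was at 1.84 and 2.45 times the MAX level in induced S34F, 3.55 and 3.38 in induced Q157R and 4.44 to 6.66 in the other 6 libraries. These ratios combine the members' own values and carry no test.

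**Figure D3:**
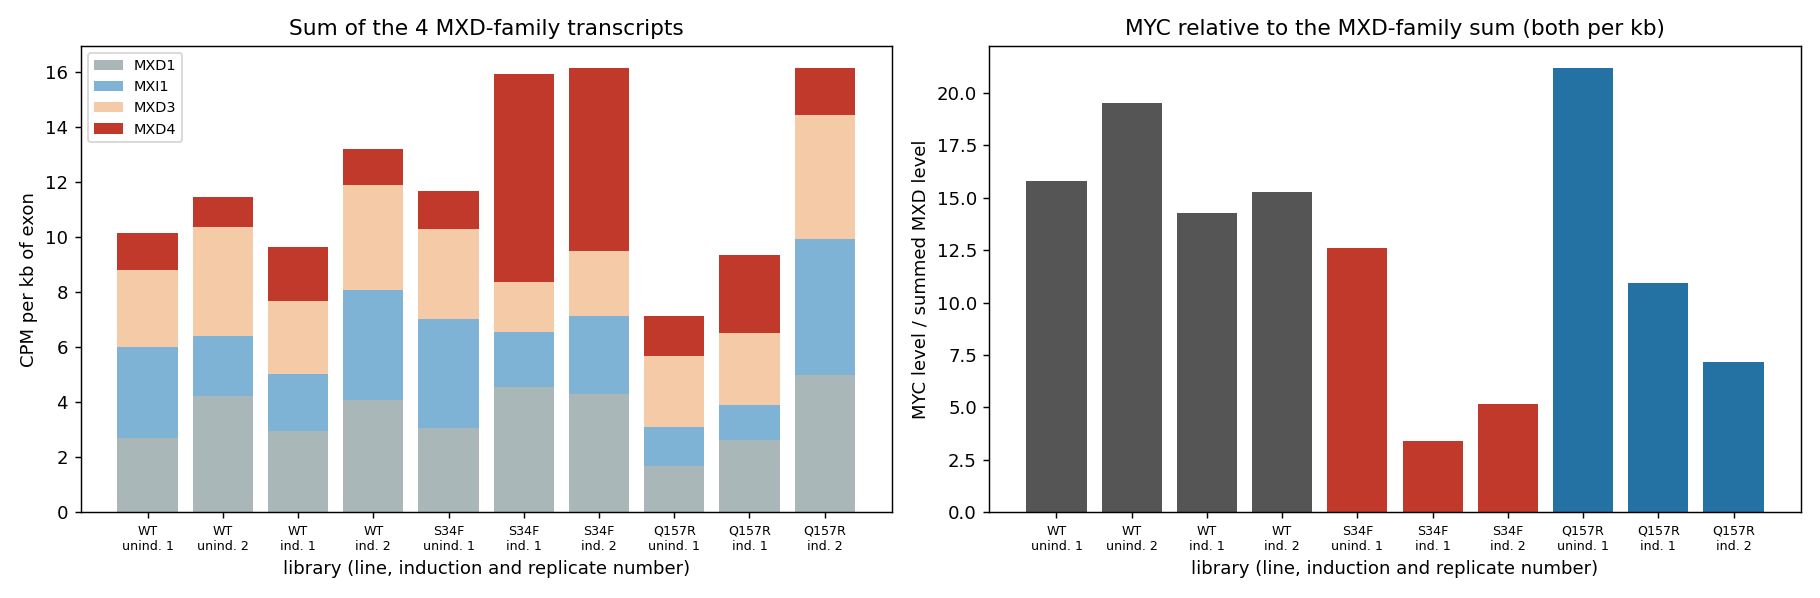
Left, summed level of MXD1, MXI1, MXD3 and MXD4 (CPM per kb of exon, stacked) in each library; right, MYC level divided by that sum, both per kb. MXD4 fills 47.4% and 41.2% of the induced S34F bars, where the ratio is 3.39 and 5.16.

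Induction of S34F was compared with the 1 uninduced S34F library, so the spread of that arm was borrowed from the other groups. MXD4 went from 9.96 CPM to 53.3 and 46.9. Uninduced S34F thus lay within the range of the WT libraries, 7.79 to 13.9 CPM. The rise was 5.03-fold (2.33 ± 0.40, adjusted p = 0.0404, edgeR), with 1 of 10 members called against 1.96% of all genes. The replicate block gave 2.55 ± 0.26 (adjusted p = 3e-04), and the call was lost without induced S34F replicate 1 (2.24, adjusted p = 0.259) or replicate 2 (2.43, 0.167). MYC went from 441 CPM to 162 and 250, a difference of -1.10 ± 0.33 that did not pass (adjusted p = 0.104) and that passed with the block (-1.36 ± 0.18, adjusted p = 0.00101). MXD3 went from 16.8 CPM to 9.42 and 12.1 (-0.64 ± 0.40, adjusted p = 0.345, and with the block -0.92 ± 0.22, adjusted p = 0.0142). The block called 3 members against 19.2% of all genes.

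Induction of WT changed no member by the test (0 of 10 called by edgeR, 0 with an unadjusted p under 0.05, 0 by DESeq2, and 0% of all genes called by edgeR). MYC was at 480 and 672 CPM before and 413 and 607 after induction (-0.18 ± 0.28, adjusted p = 0.939). MXD4 was at 9.35 and 7.79 before and 13.9 and 9.43 after, libraries that just did not overlap (0.45 ± 0.30, adjusted p = 0.831). The difference between the response of S34F and that of WT was tested as an interaction. For MXD4 it was 1.88 ± 0.48 (unadjusted p = 0.00441, adjusted p = 0.589, edgeR) and for MYC -0.92 ± 0.44 (adjusted p = 0.631). It called 0 of 10 members and 0% of all genes, and 1 member and 1745 of the 21300 genes had an unadjusted p under 0.05. DESeq2 called 0 members and 27 genes. With the replicate block MXD4 and MYC both passed, MXD4 at 2.13 ± 0.31 (adjusted p = 0.0211) and MYC at -1.18 ± 0.23 (adjusted p = 0.0445), against 0.704% of all genes. The comparisons with induced S34F share its 2 libraries, so their values for MXD4 and MYC are not independent.

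In the Q157R line no member was called. MYC was at 307 and 348 CPM in induced Q157R, below both induced WT libraries and above both induced S34F libraries. Against WT the difference was -0.64 ± 0.28 (adjusted p = 1, edgeR, and 0.246 with the block at -0.61 ± 0.14), and 0 of 10 members were called (0 with an unadjusted p under 0.05, 0 by DESeq2), as were 0% of all genes. MXD4 was at 20.0 and 12.1 CPM in induced Q157R, overlapping induced WT (0.46 ± 0.29, adjusted p = 1). The remaining members were between -0.18 (MLX) and 0.14 (MXD3) on the log2 scale. Against its 1 uninduced library, induction of Q157R put MYC at -0.47 ± 0.34 and MXD4 at 0.62 ± 0.37. With the replicate block the values were -0.70 ± 0.18 for MYC and 0.80 ± 0.24 for MXD4. Neither gene was called, and both had the same sign as in S34F induction. After induction of Q157R, MXD1 went from 10.8 CPM to 16.7 and 31.7 (1.16 ± 0.45, unadjusted p = 0.031, adjusted p = 0.555), with its replicates far apart, and MXI1 from 6.37 to 5.80 and 22.9 (1.17 ± 0.77, adjusted p = 0.622). Q157R induction called 0 of 10 members (1 with an unadjusted p under 0.05, beside 1888 of the 21300 genes, and 0 by DESeq2, beside 75), and 0% of all genes. Its difference from the response of WT was -0.29 ± 0.44 for MYC and 0.18 ± 0.47 for MXD4 (adjusted p = 1 for each), with 0 of 10 members called (0 with an unadjusted p under 0.05, 0 by DESeq2) and 0% of all genes.

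The direct comparison of induced S34F with induced Q157R put MXD4 at 53.3 and 46.9 against 20.0 and 12.1 CPM, with no overlap. The difference was 1.65 ± 0.30 (adjusted p = 0.059, edgeR), and with the replicate block 1.68 ± 0.18 (adjusted p = 0.000463). MYC differed by -0.67 ± 0.28 (adjusted p = 0.222; with the block -0.70 ± 0.14, 0.00704) and MXD3 by -0.77 ± 0.33 (adjusted p = 0.232; with the block -0.73 ± 0.18, 0.0152). Without the block 0 of 10 members were called against 0.559% of all genes, and with it 3 were called against 20%. Without it, 3 members and 4587 of the 21300 genes had an unadjusted p under 0.05. DESeq2 called 1 member and 1341 genes. Before induction 0 members were called for S34F or for Q157R against WT by edgeR or DESeq2, and 0% of genes. An unadjusted p under 0.05 was held by 0 and 1 members, beside 183 and 234 of the 21300 genes. Uninduced MYC stood at 441 CPM in S34F and 453 in Q157R, under the 480 and 672 of WT (-0.38 ± 0.35 and -0.35 ± 0.35, adjusted p = 1 for each).

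Genes around the network were taken from 8 lists of textbook partners and targets, in S34F against WT after induction. Of 50 MYC-activated targets tested, 0 were called higher and 4 lower (0.681% and 0.991% of all genes were), 47 had a negative value, and the list's median was -0.75, beside 0 for all genes and -0.16 for protein-coding genes. With the replicate block 28 were called lower and 0 higher, against 12.9% and 9.56% of all genes. CDK4, the kinase that drives G1 progression, fell from 213 ± 17.6 to 82.8 ± 8.38 CPM (SD, n = 2 each; -1.36 ± 0.19, adjusted p = 0.0432, edgeR). SRM, spermidine synthase, fell from 167 ± 31.4 to 58.9 ± 8.11 CPM (-1.51 ± 0.28, adjusted p = 0.0458). GART fell from 509 ± 9.79 to 290.0 ± 8.64 CPM (-0.81 ± 0.15, adjusted p = 0.0458), and PAICS, which like GART works in purine synthesis and was added after its value was seen, by 0.95 ± 0.18 on the log2 scale (adjusted p = 0.0467). These 4 calls were lost, at unchanged direction, when any 1 of the 4 induced S34F and WT libraries was left out or when only those groups were fitted, settings under which 0 of all genes were called (CDK4 then stood at -1.47 to -1.26 with 1 library left out).

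The same list had a median of -0.97 for S34F induced against uninduced (4 of 50 called lower, against 1.26% of all genes, and 0 called when 1 induced S34F library was left out). Its median was -0.66 for S34F against Q157R (0 called lower by edgeR against 0.258%, 23 with an unadjusted p under 0.05 beside 4587 of the 21300 genes, 11 by DESeq2 beside 1341). It was -0.47 for Q157R induction, -0.30 for WT induction and -0.06 for Q157R against WT. With the replicate block 25 were called lower for S34F induction (median -0.83, against 11% of all genes called lower) and 28 for S34F against Q157R (median -0.62, against 11.5%). These comparisons share the induced S34F libraries.

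MYC-repressed targets stood on both sides of 0. Of 13 tested, 7 had a positive and 6 a negative value, with a median of 0.26. Without the block 1 was called, GADD45A, a stress-induced growth arrest gene, which fell from 129 ± 9.57 to 67.7 ± 3.99 CPM (-0.93 ± 0.17, adjusted p = 0.0451, edgeR), opposite to the list's name. With the block 2 were called higher and 2 lower, against 9.56% and 12.9% of all genes. Among 19 coactivators and chromatin partners, RUVBL2, an ATPase of the TIP60 and INO80 complexes, fell from 196 ± 6.46 to 87.2 ± 1.52 CPM (-1.17 ± 0.15, adjusted p = 0.0432). It was the 1 gene called there without the block, and the list's median was -0.43. The block called 1 higher and 9 lower of the 19, against 9.56% and 12.9% of all genes. Without it, 9 of the 19 had an unadjusted p under 0.05, beside 4973 of the 21300 genes. DESeq2 called 3 of the 19, beside 1612 genes. The calls of GADD45A and RUVBL2 were likewise lost when any 1 of the 4 libraries was left out (adjusted p from 0.12 to 0.36) or when only the compared groups were fitted (0.0787 and 0.076).

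The lists of corepressors, of the MGA complex and of MYC turnover had 0 genes called by edgeR without the block (4, 3 and 3 with an unadjusted p under 0.05, and 0, 1 and 0 by DESeq2). Over all 21300 genes 4973 had an unadjusted p under 0.05 and 1612 were called by DESeq2. The 16 corepressors of MXD and MNT had a median of -0.33, with the histone-binding RBBP4 at 445 ± 34.7 against 603 ± 19.9 CPM (adjusted p = 0.147). The 12 genes of the MGA-containing Polycomb complex had a median of -0.31, with TFDP1, a partner of E2F factors, at 82.5 ± 0.892 against 169 ± 38.9 CPM (-1.03 ± 0.23, adjusted p = 0.0622) and CBX3 at 120 ± 14.8 against 153 ± 28.5 (adjusted p = 0.386). The 16 genes of MYC protein turnover had a median of -0.22. Among them the ubiquitin ligase HUWE1 was at 532 ± 2.52 against 594 ± 47.1 CPM (adjusted p = 0.563). With the block, 1 higher and 3 lower genes were called among the corepressors, 0 and 3 in the Polycomb list and 1 and 3 in the turnover list, beside 9.56% higher and 12.9% lower over all genes.

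The 9 glucose-response targets of MLXIP and MLX spread in both directions (3 positive and 6 negative, median -0.21), with 0 called by edgeR (3 with an unadjusted p under 0.05 and 1 by DESeq2, beside 4973 and 1612 of the 21300 genes). With the block 4 were positive and 5 negative with a median of -0.07, and 2 were called higher and 1 lower, beside 9.56% and 12.9% of all genes. TXNIP, the gene most closely tied to MLXIP activity, was at 409 and 785 CPM in induced S34F and 273 and 1110 in induced WT, too variable to order the groups (-0.21 ± 0.85, adjusted p = 0.903). HK2, hexokinase 2, was at 143 and 198 against 301 and 405 CPM (-1.05 ± 0.36, adjusted p = 0.141). Of the 5 other core genes, 4 were tested with 0 called (1 with an unadjusted p under 0.05, 0 by DESeq2, beside the same all-gene counts). The E-box factors USF1 and USF2 were at -0.08 ± 0.25 and -0.14 ± 0.22 (adjusted p = 0.868 and 0.729, edgeR). The block called 2 of the 4 lower, against 12.9% of all genes, and these were the MYC paralogues MYCN (-1.26 ± 0.27, adjusted p = 0.0117) and MYCL (-2.03 ± 0.23, adjusted p = 0.000451), named after their values were seen.

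**Figure D4:**
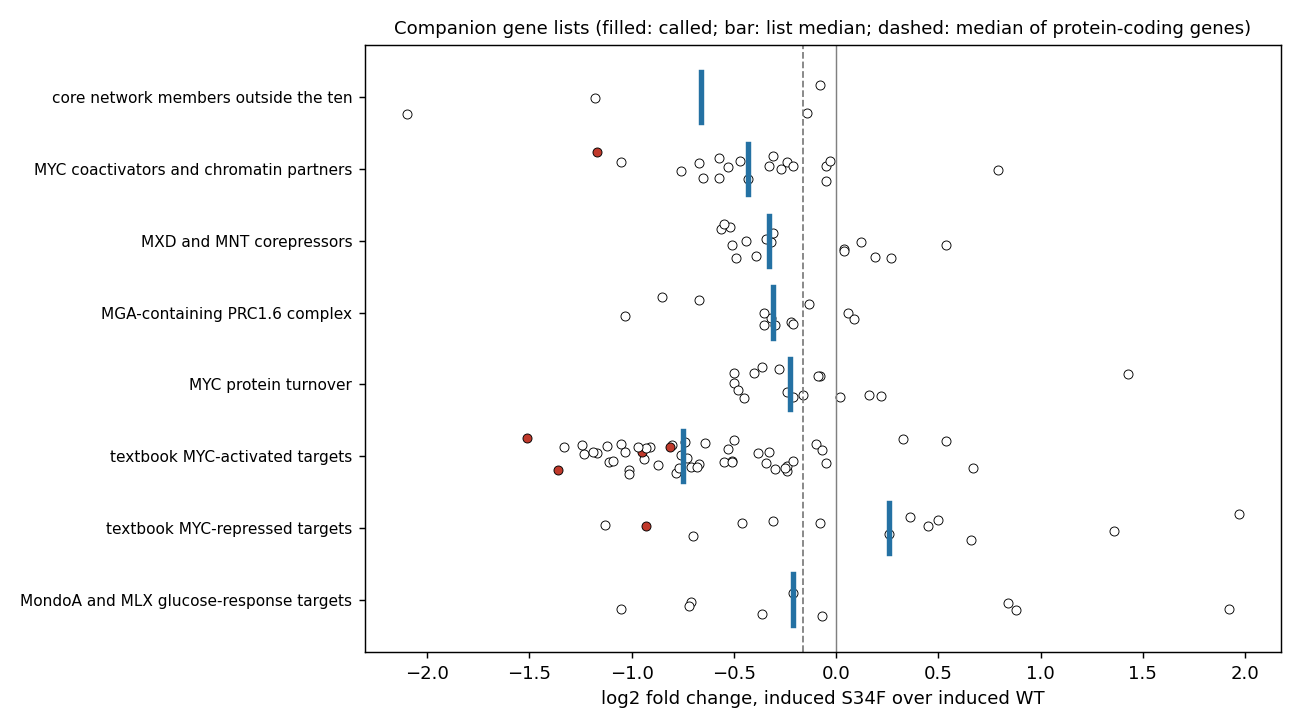
Log2 fold change of each tested gene, induced S34F over induced WT (x axis), in 8 lists around the network (y axis). Filled points were called, blue bars are list medians and the dashed line is the median of protein-coding genes (-0.16). The MYC-activated list has the lowest median of the 8 lists (-0.75), next to -0.66 for the other core genes, of which only 4 were tested.

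The likeness of other genes to MYC and MXD4 was measured as the root mean square (RMS) difference of centred log2 levels over the 10 libraries, among 9810 protein-coding genes. For MYC the nearest included MLST8 (0.131), a subunit of the mTOR complexes that was at 37.9 CPM in induced S34F and 88.8 in induced WT, and BCL7A (0.174), a subunit of the SWI/SNF complex. The median gene differed from MYC by 0.559. For MXD4 the nearest were TEK (0.201), the angiopoietin receptor, at 44.7 CPM in induced S34F and 15.2 in induced WT, then ZNF117 (0.270) and ERV3-1 (0.273), against a median gene at 1.03. ZNF117 and ERV3-1 are neighbours that can share reads, so they count as 1 profile. The points are libraries that share replicate numbers, and the values describe likeness only.

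The CLIP tables sample RNA crosslinked to U2AF1 or U2AF2. In eCLIP the protein is immunoprecipitated after ultraviolet crosslinking, and in freCLIP the membrane is divided into a light fraction (37 to 65 kD) and a heavy fraction (65 to 110 kD). Only 0.856% to 1.91% of their reads named a gene. Before any member was read from them, members were compared with the genes annotated across them on the opposite strand. AL139022.1, an antisense gene that crosses MAX, held 53 counts in RNA-seq beside 42196 for MAX, but 5495 in eCLIP beside 41 for MAX. PSMC3IP held 3226 beside 23300 for MLX in RNA-seq and 1041 beside 189 in eCLIP. PRELID1, in the opposite arrangement, held 58587 beside 4606 for MXD3 in RNA-seq and 49 beside 1177 in eCLIP. The larger row of the pair thus switched for MAX, MLX and MXD3, as well as for MNT and MGA, and in eCLIP not for MXI1, whose partner AL360182.2 went from 0.158% to 36.2% of the pair.

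**Figure D5:**
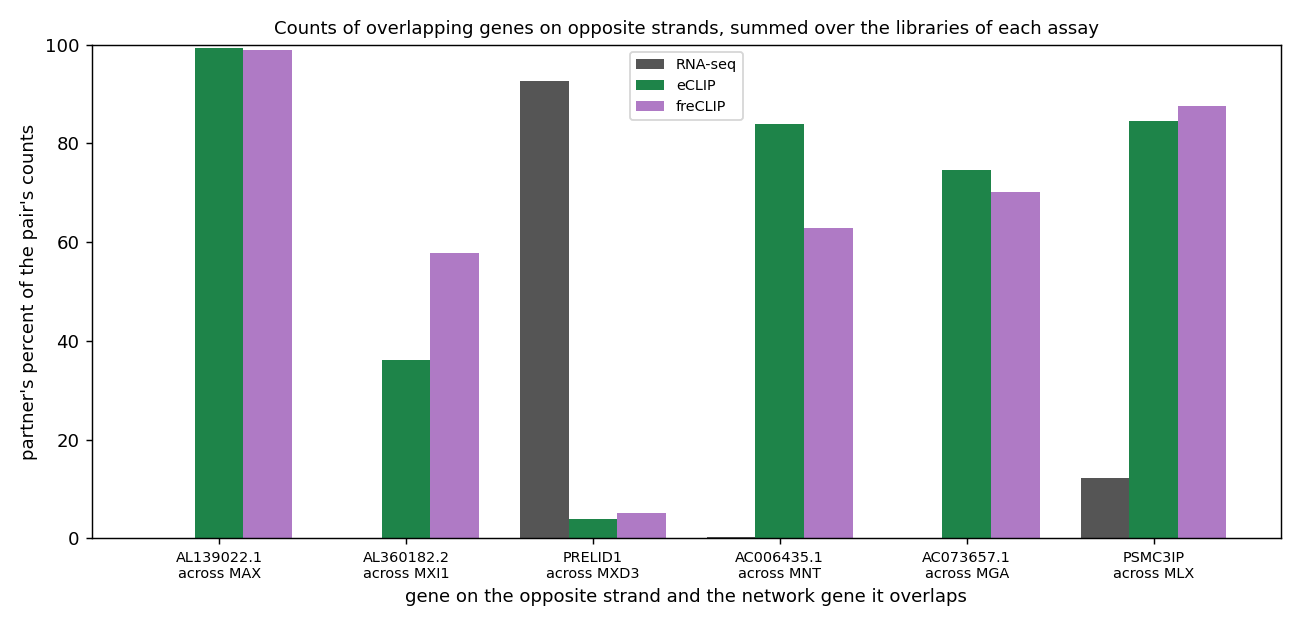
Share of a pair's counts (y axis, percent) held by the gene on the opposite strand, for the 6 network genes that share exonic bases with one (x axis), in RNA-seq, eCLIP and freCLIP, each summed over its libraries. AL139022.1 goes from 0.125% of the pair with MAX in RNA-seq to 99.3% in eCLIP, and PRELID1 from 92.7% of the pair with MXD3 to 4%.

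The same held across the annotation. Of 2117 antisense genes that overlap exons of 1 protein-coding gene (pairs with at least 10 counts in each assay), the antisense row was the larger in 8.74% in RNA-seq, 59.1% in eCLIP and 58.6% in freCLIP. The strand setting of the counting is not given in the sources used here, and which strand the CLIP reads came from was not tested. A CLIP count of a member is therefore given as the count of its row and not as crosslinking to its RNA.

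Read in this way, the eCLIP rows of induced WT cells were small for most members. The 3 U2AF1 and 4 U2AF2 libraries are 2 biological replicates for each protein, sequenced with 1 and 2 further technical libraries, and the counts below are sums over all of them. MXD3 had 563 counts with U2AF1 and 614 with U2AF2, MXD1 122 and 143, MLX 88 and 101, and MNT 51 and 26. MXI1 had 43 and 17, MAX 32 and 9, MYC 27 and 24, MGA 9 and 11, MXD4 3 and 4, and MLXIP 2 and 11. With U2AF1 all counts of MYC, MAX, MGA and MLXIP came from biological replicate 1, and replicate 2, the shallowest library at 306711 gene counts, held 0 of each. The order of the rows did not follow RNA level: MYC, the most abundant member in RNA, had fewer eCLIP counts than MXD3. The MXD3 row is among those whose pair switched with the gene on the opposite strand. This order is therefore not read as crosslinking to the members' RNA.

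In freCLIP 4 of 10 members (MXD1, MXD3, MNT and MLX) passed the filter among 6833 genes tested. For S34F against WT, 0 were called in the light fraction (0 with an unadjusted p under 0.05, 0 by DESeq2) against 0.337% of all genes, and 0 in the heavy fraction (0 and 0) against 0.132%. For Q157R against WT, 0 were called in the light fraction against 7.6%, and 0 in the heavy fraction against 0%. An unadjusted p under 0.05 was held by 2 members in the light and 1 in the heavy fraction, beside 2100 and 149 of the 6833 genes. DESeq2 called 0 members in each fraction, beside 716 genes in the light and 0 in the heavy one. MNT had 102 counts in heavy S34F, of which 70 were in 1 of 3 libraries, and 20 in heavy WT (2.36 ± 1.39, adjusted p = 1, edgeR). MXD1 and MLX had 0 counts in light Q157R, beside 97.2 and 101 CPM in light WT (adjusted p = 0.0638 and 0.0718, edgeR). The light Q157R libraries held 38415 and 135596 gene counts. At that depth the floor of 3 counts is 17.2 CPM, and the 95% interval for 0 counts reaches 21.2 CPM. Over all genes the median log2 fold change of this comparison was -1.19, with 92 genes called higher and 427 lower. For MXD1 the light WT counts were 7, 49 and 0 in replicates 2, 3 and 4. Without replicate 3 the level was 27.8 CPM (adjusted p = 0.151), and without replicate 4 it was 139 CPM (0.0356, edgeR). For MLX they were 7, 26 and 25, and the adjusted p was 0.067 to 0.109 with 1 of these left out. MYC had 30 counts over 4 heavy WT libraries (2 to 15 each), 1 over 3 heavy S34F libraries and 0 over 2 heavy Q157R libraries, too few for the filter. MXD4 had 3 counts over all 17 freCLIP libraries, so no difference was detectable at this depth.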

How the data were processed

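The data were 3 tables of raw read counts per gene that the authors deposited, for 10 RNA-seq, 7 eCLIP and 17 freCLIP libraries; the 9 samples of TimeLapse-seq are not analysed here. Per the submitters' processing notes the build was GRCh38.p10 and the tools included HISAT2, STAR (2.5.3a and 2.7.0f) and HTSeq, with no role stated for any; the annotation release and strand setting are not given in the sources used here. Gene IDs were matched to GENCODE 29 (58084 of 58347). Lines that name no gene stayed out of library sizes and tests. RNA-seq held 22392303 to 40370092 gene counts per library, eCLIP 306711 to 1148212 and freCLIP 38415 to 730996; intervals and floors (3 counts) cover counting error only.

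Differences were tested in R 4.3.3 with edgeR 4.0.16 (TMM, filterByExpr (minimum count 10), robust quasi-likelihood F test, 1 mean per group, all libraries of an assay in the fit). P-values were adjusted by Benjamini-Hochberg over every gene tested, with 0.05 as the threshold. The code was tested on simulated data. Alternatives were a replicate block, DESeq2 1.42.0, RLE scaling, no filter, protein-coding genes only, the compared groups only and leaving out each replicate. The replicate number pairs the RNA-seq data: residuals correlated at 0.25 to 0.77 in 12 of 12 pairs with the same number, each coefficient appearing for replicate 1 and again, mirrored, for replicate 2. It does not pair freCLIP libraries (-0.00887 to 0.107). Likeness of profiles used log2(CPM + 0.5) and genes with a mean of at least 3. E-boxes were searched in RefSeq promoters. The members and lists were chosen with earlier results of these data known. Named were all members, U2AF1, up to 3 genes per list called in induced S34F against WT with the lowest adjusted p (or the 2 most abundant), and the 3 nearest profiles of MYC and of MXD4; some genes the rule names are not reported here.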

Additional observations from a re-analysis of the deposited data

Results flagged for a closer look

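The MXD3 row of heavy WT freCLIP had 1 library apart from the others: replicate 4 was at 292 CPM, the next highest at 207 and the lowest at 190.5, so the gap made up 0.837 of the group's range, above the critical value of Dixon's test for 4 samples. Chance flags about 1 in 20 groups, and 8 members' heavy WT values were examined. Which strand these reads came from was not tested.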

How the results depend on the processing

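Over 72 results for single members and 680 alternative settings, 655 kept their direction and side of the threshold, 18 newly passed it, 7 no longer passed and 0 reversed; a change of sign counted as a reversal only where a value was called. The members called in induced S34F against WT numbered 1, and 3 with the replicate block, 2 with DESeq2, 2 with no filter on low counts, 0 with only the compared groups fitted, and 0 to 0 when 1 replicate was left out. For S34F against Q157R they numbered 0, and 3 with the block, 1 with DESeq2 and 2 with no filter. For S34F induction they numbered 1, and 3 with the block, 2 with DESeq2, 2 with no filter, 2 with only the compared groups and 0 to 0 when 1 replicate was left out. For the interaction of S34F with induction they numbered 0, and 2 with the block and 1 with no filter. Over all genes S34F against Q157R called 119, and 4261 with the block, 1341 by DESeq2 and 2135 with no filter. S34F induction called 418 genes, and 4099, 1812 and 2992 under the same settings. The interaction called 0 genes, and 150 with the block and 306 with no filter. The replicate block changed no other call of a member in RNA-seq. In light freCLIP, Q157R against WT, the 0 called became 1 without WT replicate 4, beside 500 of the 6019 genes then tested. The cause of these changes was not tested. Over all genes, S34F against WT called 356 (145 higher and 211 lower), 4779 with the block, 1612 by DESeq2, 2410 with no filter, 128 with protein-coding genes only (72 higher and 56 lower), 0 with only the compared groups and 0 without any 1 of the 4 libraries. Scaling on protein-coding genes only, whose median was -0.16, put MYC at -1.17 and MXD4 at 2.24. The eCLIP level of the MNT row with U2AF2 moved from 10.6 to 12.1 CPM with biological libraries only. In freCLIP the depth left 6 of 10 members below the filter.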
